A study of Mus musculus with 2 samples.

Results

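Many of the genes described here encode receptors by which myeloid cells read sugars, antibodies, sialic acids or membrane lipids. All were chosen by symbol: C-type lectin (Clec), Fc receptor (Fcgr, Fcer), Siglec, Cd300, Ms4a, Lilr and Pira genes, with Ms4a1 left out. The rule also takes in genes known from other cells, such as Clec3b, Clec14a and Fcer2a. The deposited table has 38972 gene rows, 73 of which met this rule, and 53 of these passed the filter on low counts.

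The tested library came from lung cells isolated as fibroblasts from myoFoxf1 KO mice, which carry αSMA-Cre-ERT2 and Foxf1fl/fl, and the other from Foxf1fl/fl mice without the Cre, on the C57Bl/6 background. The smooth muscle actin promoter of this Cre directs deletion of Foxf1, a forkhead transcription factor gene, to myofibroblasts and smooth muscle once tamoxifen is given. The protocol states bleomycin, a drug that scars the lung, at 1 or 2 U/kg each week for 2 to 4 weeks, and tamoxifen at 40 mg/kg on days 2 to 4. The labels do not give the age of the mice, the animals per library, the way cells were isolated or the dose of bleomycin used, and only the title of the control names bleomycin.

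C-type lectins bind carbohydrate and other ligands on microbes and on damaged cells. Many activating lectins and Fc receptors carry no signal of their own and hand it to a partner chain with an activating tyrosine motif (ITAM), Fcer1g or Tyrobp, which recruits the kinase Syk. Inhibitory members carry an inhibitory tyrosine motif (ITIM) that recruits phosphatases such as Ptpn6. In lung these receptors are known from alveolar and recruited macrophages, neutrophils and dendritic cells.

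The KO library held 15122824 rounded reads assigned to genes and the control library 16145959. Foxf1 had 49 reads in the KO library and 158 in the control. Its log2 ratio was -1.27 (95% interval -1.77 to -0.81), and -0.84 after the correction for GC content and length described further on. Fibroblast markers had a median log2 ratio of -1.03 and endothelial markers one of -0.93. The part of such cells in the Foxf1 ratio was not tested. Levels are given as CPM, the reads of a gene brought to a common library total with TMM scaling. FPKM, the authors' value per kilobase of gene, is used wherever levels of different genes are compared. Calls of higher or lower needed a 2-fold difference in CPM, with 1 outside the exact 95% interval of the KO to control ratio. These intervals cover counting error only. They take PCR copies of a molecule as separate reads, since no molecular identifiers mark which PCR reads share a molecule. With 1 library per genotype there is no replicate check of any difference, and p-values are not given. The macrophage gene Lyz2 stood at 24231 CPM in the KO library and 11221 CPM in the control, above any fibroblast marker in both, although the label names fibroblasts. In such mixed libraries, more cells of a type and more RNA per cell cannot be told apart.

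Of the 53 measured members 20 were called higher in the KO library, or 37.7%, against 9.37% of the 14455 genes measured. Another 6 were called lower, or 11.3%, against 14.2% of all genes. The median log2 ratio of KO over control was 0.80 for the measured members and 0.01 for all measured genes. Together the 73 members took 109325 reads in the KO library, 0.723% of its reads (95% Clopper-Pearson interval 0.719 to 0.727). In the control they took 69529 reads, 0.431% (0.427 to 0.434). The 4 most abundant members, Clec7a, Clec4e, Lilrb4 and Clec4n, held a large part of these. They took 62273 reads in the KO library (0.412% of its reads) and 33280 in the control (0.206%). The share of members called higher was largest among the abundant ones. Of 23 members with a mean of at least 50 CPM 13 were higher (56.5%) and none lower. Of the 4027 genes of that level 13.4% were higher and 3.33% lower. Of 16 members under 10 CPM 3 were higher and 3 lower (18.8% each), against 9.56% higher and 25.5% lower among the 5376 genes of that level.

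Scaling and base composition moved these counts. Scaling by total reads alone lowered the ratios by about 0.32, which put the median of the measured genes at -0.31 and that of the 53 members at 0.48. With the filter then applied anew, 11 members were higher, against 4.05% of all genes, and 6 lower, or 11.1%, against 22.1% of all genes. The higher members had a median GC content of 42.5% and the lower ones 52.0%, and the median over measured genes was 49.7%. When the trend of the ratio on GC content and transcript length was removed, 8 members were higher, 7 of them among the 20, against 5.36% of all genes, and 4 were lower, or 7.55%, against 10.9% of all genes. The higher calls of Siglec1, Ms4a7, Ms4a6d, Lilra6, Pira2 and Clec12b and the lower calls of Clec3b, Clec14a and Ms4a4d held under both. The part of composition in the ratios was not tested further.

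**Figure D1:**
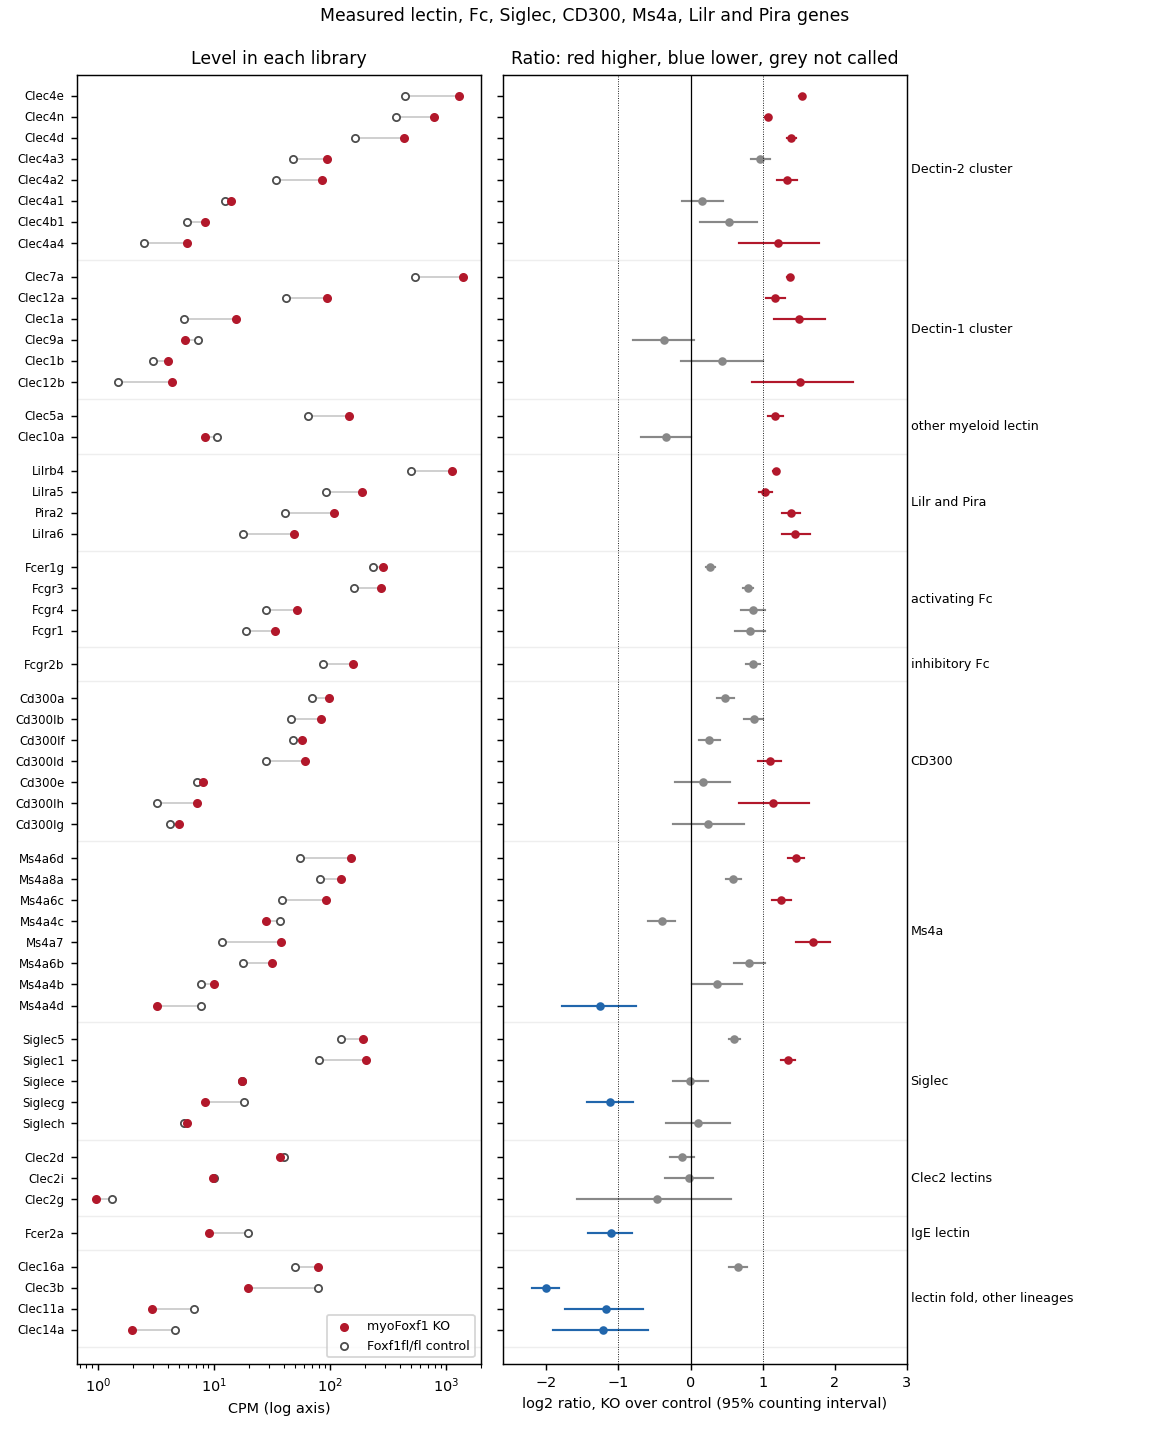
Levels (left, CPM on a log axis) and log2 ratios of KO over control (right, with 95% counting intervals) of the 53 measured members, grouped by role, with 1 library per genotype. Filled points are the KO library and open points the control, and dotted lines mark 2-fold: the Dectin-2 and Lilr and Pira groups lie to the right of 0, and Clec3b and Ms4a4d to the left.

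Promoter windows of 6 members are shown because the abundant lectins and the Lilr and Pira genes moved in the same direction, and because Siglecg moved in the other. They are RefSeq windows on GRCm38.p6 of 250 bases before and 50 after a gene's start. Capitals mark the PU.1 core GAGGAA, a motif of the myeloid factor PU.1, and the ISRE core, a motif of interferon-regulated factors, on either strand. In Clec4d both motifs overlap at the gene's start.
Clec7a: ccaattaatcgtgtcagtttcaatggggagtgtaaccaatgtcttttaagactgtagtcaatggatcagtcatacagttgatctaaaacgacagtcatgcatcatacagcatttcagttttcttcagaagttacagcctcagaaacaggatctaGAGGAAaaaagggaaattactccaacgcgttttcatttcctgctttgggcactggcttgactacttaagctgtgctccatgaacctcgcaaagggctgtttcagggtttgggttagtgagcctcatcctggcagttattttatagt
Clec4e: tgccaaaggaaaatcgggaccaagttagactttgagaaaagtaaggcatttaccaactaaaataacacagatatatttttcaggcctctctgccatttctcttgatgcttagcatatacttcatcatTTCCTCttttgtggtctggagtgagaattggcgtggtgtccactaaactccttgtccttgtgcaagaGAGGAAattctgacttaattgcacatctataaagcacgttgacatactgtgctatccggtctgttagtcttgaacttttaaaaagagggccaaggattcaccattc
Clec4d: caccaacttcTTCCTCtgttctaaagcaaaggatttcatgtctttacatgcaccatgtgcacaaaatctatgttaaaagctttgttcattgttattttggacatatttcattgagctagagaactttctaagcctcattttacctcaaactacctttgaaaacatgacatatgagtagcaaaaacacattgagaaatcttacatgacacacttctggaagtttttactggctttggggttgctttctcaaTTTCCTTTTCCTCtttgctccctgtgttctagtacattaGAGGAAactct
Pira2: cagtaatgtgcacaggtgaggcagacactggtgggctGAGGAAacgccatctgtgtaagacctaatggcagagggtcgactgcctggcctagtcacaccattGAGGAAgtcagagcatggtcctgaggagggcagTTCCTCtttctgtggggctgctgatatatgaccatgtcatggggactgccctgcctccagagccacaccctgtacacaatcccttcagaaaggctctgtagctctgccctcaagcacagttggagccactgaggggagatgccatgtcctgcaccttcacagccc
Lilra6: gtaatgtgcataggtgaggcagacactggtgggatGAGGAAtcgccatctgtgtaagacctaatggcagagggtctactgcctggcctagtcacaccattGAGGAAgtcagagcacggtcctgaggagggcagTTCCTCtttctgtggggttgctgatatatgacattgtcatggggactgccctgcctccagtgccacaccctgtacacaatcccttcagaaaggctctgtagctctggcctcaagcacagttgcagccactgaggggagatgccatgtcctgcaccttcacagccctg
Siglecg: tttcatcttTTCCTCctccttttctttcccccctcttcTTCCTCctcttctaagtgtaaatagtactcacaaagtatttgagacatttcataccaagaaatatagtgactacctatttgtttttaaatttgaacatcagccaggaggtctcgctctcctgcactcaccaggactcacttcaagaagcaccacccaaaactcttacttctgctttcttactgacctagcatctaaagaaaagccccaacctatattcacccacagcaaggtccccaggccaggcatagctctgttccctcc
The Clec7a window lies at chr6:129472730-129473029 on the minus strand and holds 1 PU.1 core, that of Clec4e at chr6:123289822-123290121 (minus) holds 2, and that of Clec4d at chr6:123261857-123262156 (plus) holds 3. The Pira2 window at chr7:3845002-3845301 (minus) and the Lilra6 window at chr7:3915452-3915751 (minus) each hold 3. They are near copies, with 287 of 298 aligned bases identical (96.3%) at an offset of 2 bases. The Siglecg window at chr7:43407989-43408288 (plus) holds 2, and another Siglecg window, at chr7:43408030-43408329 and not printed, holds none.

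A window was found for 60 of the 73 members, 68 windows in all. The PU.1 core was in 37 of these, or 54.4%, and in 28.3% of all 32851 windows of the same length. Some genes have several windows. Counted by gene, the core was in a window of 8446 of all 27025 genes with windows. A window was found for 14 of the 20 members called higher, 25 of the 27 not called and 5 of the 6 called lower. The core was in a window of 11 of these 14, 14 of these 25 and 3 of these 5. The difference between these groups was not tested. The higher members with a window but no core were Clec4a2, Clec12b and Ms4a6c. For the abundant members Clec4n and Lilrb4 no window was found. The ISRE core was in 6 of the 68 windows, or 8.8%, against 3.4% of all windows. These counts describe letters in the windows and not binding.

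The Dectin-2 cluster lies on chromosome 6 from 122921848 to 123289870 (GRCm38), with 9 members of which 8 were measured. All 8 had ratios above 0, 5 were called higher, and their median was 1.14. Clec4e, which encodes Mincle, a receptor for mycobacterial glycolipid and for a nuclear protein set free by dead cells, had 17564 reads (1296 CPM) in the KO library and 8024 reads (446 CPM) in the control. Its log2 ratio was 1.54 (1.50 to 1.58), the highest of the cluster. Clec4d, whose product MCL pairs with Mincle, stood at 434 CPM in the KO library and 165 CPM in the control, a ratio of 1.39 (1.33 to 1.46). Clec4n, the gene of Dectin-2, which binds fungal mannans, stood at 782 CPM in the KO library and 372 CPM in the control and had a smaller ratio of 1.07 (1.03 to 1.12). Per length, Clec4n was the most abundant of these 3 genes in both libraries, at 494 FPKM in KO and 292 FPKM in the control.

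The ratio of reads of Clec4n to Clec4e within a library does not depend on scaling. It changed by a log2 of -0.47 in KO over control (-0.52 to -0.41), a gap that was not seen after the correction for GC content and length, where Clec4n stood at 0.87 and Clec4e at 0.89. Clec4a2, the gene of the ITIM-bearing receptor DCIR, was higher, with 85.9 CPM in the KO library and 34.0 CPM in the control (1.34, 1.19 to 1.48). Clec4a4, its close relative on dendritic cells, was higher at a low level, on 79 reads in the KO library and 45 in the control (1.21, 0.68 to 1.78). Clec4a3 at 0.97 was just short of a call, and Clec4b1 (0.53) and Clec4a1 (0.16, -0.12 to 0.44) were further from it. The Clec4a genes are close copies, so their estimated reads may be shared among them. With the GC and length trend removed no gene of this cluster was called, and Clec4d stood at 0.91 and Clec4a2 at 0.64.

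The Dectin-1 group lies on the same chromosome, in a run of 13 members from 128652438 to 129472777. Clec7a, the gene of the β-glucan receptor Dectin-1, was the member with the highest mean CPM. It had 18856 reads (1391 CPM, 545 FPKM) in the KO library and 9637 reads (535 CPM, 261 FPKM) in the control, a log2 ratio of 1.38 (1.34 to 1.41). With the GC and length trend removed it was 0.84 and not called. Clec12a, an inhibitory receptor that binds uric acid crystals, was higher at 94.8 CPM in the KO library and 42.0 CPM in the control (1.17, 1.04 to 1.30; corrected 0.59). Clec1a was also higher, on 212 reads in the KO library and 99 in the control (1.50, 1.16 to 1.87; corrected 0.80). Clec12b, another ITIM-bearing lectin, was higher on 59 and 27 reads in the KO and control libraries (1.52, 0.86 to 2.25; corrected 1.11).

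Between these genes lie lectins that were not called. Clec9a, a receptor for actin filaments of dead cells on cross-presenting dendritic cells, had 76 reads in the KO library and 131 in the control (-0.37, -0.80 to 0.04). Clec1b, the platelet receptor for podoplanin, had 55 reads in the KO library and 54 in the control (0.43, -0.13 to 1.01). The rows of Clec1b and Clec9a overlap, so reads of one may count for the other. At the other end of the run lie the Clec2 genes, whose products are ligands of receptors on natural killer cells. None of the 3 measured ones was called, with Clec2d, the most abundant, at 37.1 CPM in the KO library and 40.4 CPM in the control (-0.12, -0.29 to 0.04).

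**Figure D2:**
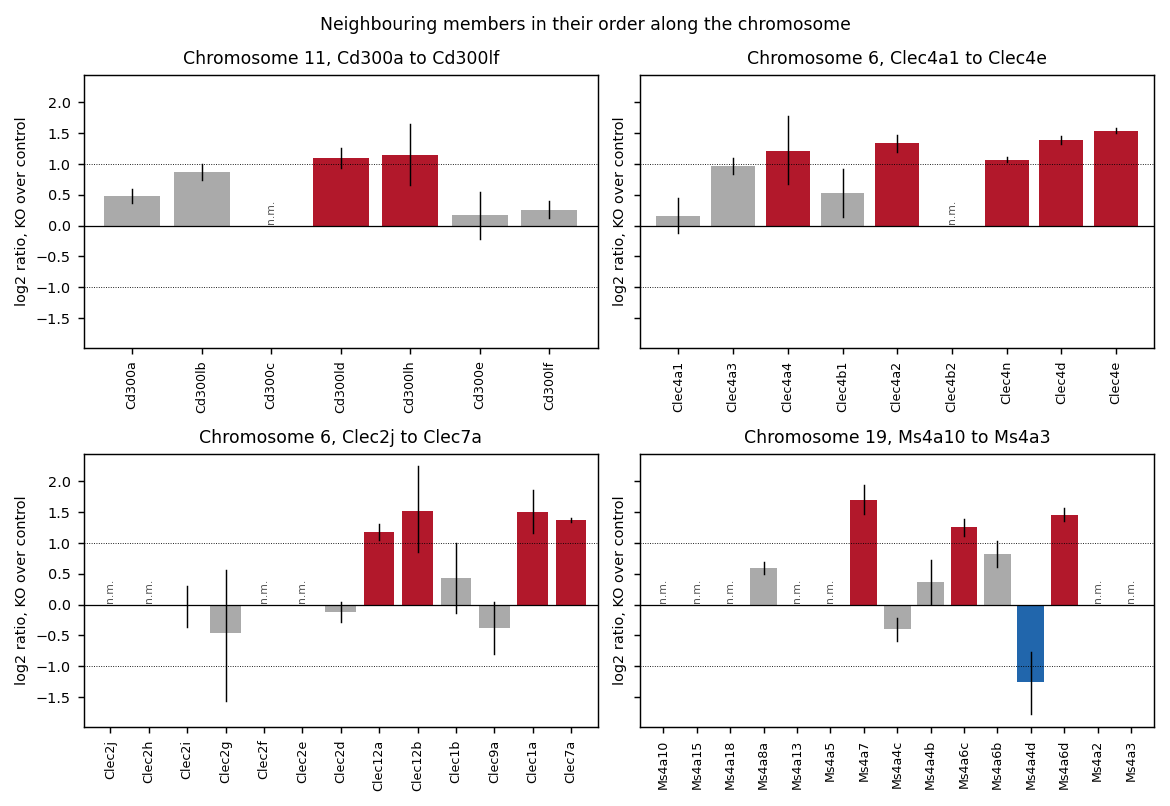
Log2 ratios of KO over control (bars, with 95% counting intervals as lines) of members in their order along 4 gene clusters; red bars were called higher, blue lower, grey not called, and n.m. marks members below the filter on low counts. Genes called higher stand beside genes near or below 0, as Clec9a beside Clec1a and Ms4a4d beside Ms4a6d.

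Clec5a, on another part of chromosome 6, encodes MDL-1, a myeloid receptor that signals through Tyrobp. It was higher, with 1967 reads (145 CPM) in the KO library and 1158 reads (64.3 CPM) in the control, a ratio of 1.17 (1.07 to 1.28; corrected 0.48). Clec10a, a galactose-type lectin of macrophages and dendritic cells, was not called, at 8.48 CPM in the KO library and 10.7 CPM in the control (-0.34, -0.68 to 0.00).

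All 4 Lilr and Pira genes were called higher, with a median ratio of 1.29. Lilrb4, an ITIM-bearing inhibitory receptor gene on chromosome 10, had the highest FPKM of all members in both libraries, 676 in KO and 371 in the control. Its reads were 15247 in the KO library and 8925 in the control, and its ratio was 1.18 (1.14 to 1.22; corrected 0.92). The row of Lilrb4, whose identifier the GENCODE M21 annotation names Gm49339, overlaps that of its close copy Gp49a. Gp49a stood at 828 CPM in the KO library and 352 CPM in the control. The reads of this pair cannot be assigned with certainty. The activating receptor gene Lilra5 was higher at 190 CPM in the KO library and 93.1 CPM in the control (1.03, 0.94 to 1.12; corrected 0.61). Pira2 stood at 108 CPM in the KO library and 41.1 CPM in the control (1.39, 1.26 to 1.52), and Lilra6 at 49.1 and 17.9 CPM in the KO and control libraries (1.45, 1.26 to 1.65). These activating receptor genes are the near copies shown above, and their read ratio to each other changed by -0.06 (-0.29 to 0.17). Pirb, their inhibitory partner outside the symbol rule, was not called at 0.71 (0.60 to 0.82).

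None of the IgG receptor genes among the members was called, though all of them were measured above 0 by similar ratios. Fcgr3, an activating low-affinity receptor gene, had 3766 reads (278 CPM) in the KO library and 2874 reads (160 CPM) in the control (0.80, 0.73 to 0.87). Fcgr4, another activating receptor gene, had 702 reads in the KO library and 510 in the control (0.87, 0.70 to 1.04), and Fcgr1, the high-affinity receptor gene, 457 and 343 in the KO and control libraries (0.82, 0.62 to 1.03). Fcgr2b, the inhibitory IgG receptor gene, had 2135 reads in the KO library and 1558 in the control (0.86, 0.77 to 0.96). Against Fcgr2b, the reads of Fcgr3 changed by a log2 of -0.06 (-0.18 to 0.05), those of Fcgr4 by 0.01 (-0.18 to 0.20) and those of Fcgr1 by -0.04 (-0.26 to 0.18). Each of these intervals held 0. Corrected for GC content and length, the activating genes stood above the inhibitory one, with Fcgr1 at 1.01 and called, Fcgr3 and Fcgr4 at 0.87 each, and Fcgr2b at 0.52.

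Before the correction, the chains that carry the signal had smaller ratios than the activating receptors named with them here. Fcer1g, whose product serves the activating IgG receptors, Dectin-2, Mincle and the Pira receptors, had 3885 reads in the KO library and 4264 in the control, at 321 and 330 FPKM. Its ratio was 0.28 (0.21 to 0.34), and -0.04 with total reads alone. Relative to Fcgr3, its reads changed by -0.52 (-0.62 to -0.43), and relative to Clec4e by -1.26 (-1.34 to -1.19), pairs chosen after their values were seen. Tyrobp, the partner chain of Clec5a, stood at 420 CPM in the KO library and 408 CPM in the control (0.04, -0.01 to 0.09). With the GC and length trend removed, Fcer1g was at 0.63 and Tyrobp at 0.64, against 0.89 for Clec4e, 0.87 for Fcgr3 and 0.48 for Clec5a.

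Among the 20 genes of the ITAM adaptor and kinase list 2 were higher and none lower, with a median of 0.27. Over all measured genes 9.37% were higher and 14.2% lower, so 2 of 20 is near the share of all genes. Malt1, a protease of the Card9 complex, had 501 CPM in the KO library and 165 CPM in the control (1.60; corrected 0.64), and the exchange factor gene Vav3 had 45.7 and 15.8 CPM in the KO and control libraries (1.53; corrected 1.14). Syk, the kinase of the pathway, was at 0.92 and Card9, the adaptor below it, at -0.37. After the correction 3 of the 20 were higher, against 5.36% of all genes. Syk then stood at 1.16, past 2-fold, and Card9 turned to 0.29. Of 13 ITIM phosphatase and regulator genes 2 were higher, Pag1 (1.14) and Cbl (1.08), and 1 was lower, Dok3 (-1.12), with a median of -0.16. After the correction none of the 13 was called, against 5.36% of all genes higher and 10.9% lower. Ptpn6, the phosphatase that ITIM receptors recruit, was not called at -0.62 (-0.71 to -0.52).

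The genes of the IgE-binding and β subunits of the high-affinity IgE receptor were near the detection limit. Fcer1a, the IgE-binding subunit of mast cells and basophils, had 14 reads in the KO library and 1 in the control, a log2 ratio with an interval of 1.50 to 9.62, and fell below the count filter. Ms4a2, the β subunit of the same receptor, had 4 reads in the KO library and 0 in the control. In the mast and basophil list, Cpa3 was higher at 13.1 CPM in the KO library and 1.28 CPM in the control (3.32) and Cma1 at 5.16 and 1.44 CPM in the KO and control libraries (1.82), while Gata2 was lower (-1.64). The summed level of that list was 38.6 CPM in the KO library and 34.1 CPM in the control, and its part in the Fcer1a reads was not tested.

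Among Siglec genes, which encode sialic acid receptors, Siglec1 was the one called higher. Siglec1, the gene of the macrophage receptor sialoadhesin (CD169) on chromosome 2, had 2793 reads (206 CPM) in the KO library and 1455 reads (80.8 CPM) in the control. Its ratio of 1.35 (1.26 to 1.44) was 1.72 after the correction, the highest corrected value of the members. The row named Siglec5 carries the identifier of Siglecf, a receptor gene of alveolar macrophages and eosinophils, and was not called, at 191 CPM in the KO library and 126 CPM in the control (0.61, 0.53 to 0.69). The read ratio of Siglec1 to this row, a pair not planned in advance, changed by 0.74 (0.62 to 0.86). Siglece, an ITIM receptor gene of neutrophils and macrophages, stood at 17.6 CPM in the KO library and 17.7 CPM in the control, and Siglech, a marker of plasmacytoid dendritic cells, was at 0.10 (-0.34 to 0.54). Alveolar macrophage markers had a median of 0.02 with 1 of 7 higher, Itgax at 1.09, and a summed level of 2256 CPM in the KO library and 1896 CPM in the control. The part of these markers in the Siglec values was not tested.

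Of 8 CD300 genes 7 were measured, all with ratios above 0, and 2 were called higher. With total reads alone none was called, Cd300lf (-0.05), Cd300lg (-0.07) and Cd300e (-0.15) lay below 0, and the median of the 7 was 0.17 in place of 0.48. CD300 products bind membrane lipids, and those of Cd300a and Cd300lf carry ITIMs. Cd300ld, an activating receptor gene, was higher at 60.8 CPM in the KO library and 28.4 CPM in the control (1.10, 0.94 to 1.26; corrected 0.90). Cd300lh was higher on 97 and 58 reads in the KO and control libraries (1.14, 0.67 to 1.65; 0.83 with total reads alone). Cd300lb, another activating gene, was at 0.88 (0.75 to 1.01) and uncalled, as were Cd300a at 0.48 (0.37 to 0.60), with 1319 reads in the KO library and 1253 in the control, and Cd300lf at 0.26 (0.12 to 0.40). The Cd300lf row overlaps that of Rab37 on the other strand, which these libraries do not mark, so reads of one may count for the other. Cd300lg, a gene of endothelial cells on another part of chromosome 11, was at 0.25 (-0.24 to 0.74).

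The Ms4a genes, which encode membrane proteins that span the bilayer several times, lie on chromosome 19 from 10962297 to 11640834, with 15 members of which 8 were measured. Within this cluster 3 were higher and 1 lower. Ms4a7, a gene of macrophages, had 514 reads (37.9 CPM) in the KO library and 210 reads (11.7 CPM) in the control, and its ratio of 1.70 (1.47 to 1.94) was the highest of the measured members. Ms4a6d stood at 152 CPM in the KO library and 55.2 CPM in the control (1.46, 1.35 to 1.57), and Ms4a6c at 93.2 and 39.0 CPM in the KO and control libraries (1.26, 1.12 to 1.39; corrected 0.85). Ms4a8a, an abundant member at 124 CPM in the KO library and 82.4 CPM in the control, was not called (0.59, 0.49 to 0.69).

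Of the neighbours of these genes, Ms4a4d and Ms4a4c went the other way. Ms4a6b (0.82, 0.60 to 1.03) and Ms4a4b (0.37, 0.02 to 0.72) lay above 0 and were not called. Ms4a4d was lower, with 44 reads in the KO library and 140 in the control (-1.25, -1.78 to -0.76; corrected -1.64). Ms4a4c was not called, with 381 reads in the KO library and 669 in the control (-0.40, -0.59 to -0.22), and was called lower after the correction, at -1.0. The read ratio of Ms4a6d to Ms4a4c changed by a log2 of 1.87 (1.65 to 2.08), a pair also chosen after its values were seen. Ms4a10, Ms4a15, Ms4a2 and Ms4a3 had at most 4 reads in both libraries together.

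The other 5 members called lower are known from cells other than macrophages. Clec3b, the gene of the secreted plasminogen-binding protein tetranectin on chromosome 9, had 268 reads (19.8 CPM) in the KO library and 1432 reads (79.5 CPM) in the control, a ratio of -2.01 (-2.20 to -1.82; corrected -1.01). It was the only measured member whose CPM differed at least 4-fold. Clec11a, a secreted growth factor gene of stromal cells, had 40 reads in the KO library and 121 in the control (-1.18, -1.74 to -0.66; corrected -0.92). Clec14a, an endothelial lectin gene, had 27 reads in the KO library and 84 in the control (-1.21, -1.91 to -0.59; corrected -1.67). In the same libraries 5 of 8 fibroblast markers and 2 of 6 endothelial markers were lower and none higher. Inmt (-2.70), Mfap4 (-1.82) and Pdgfra (-1.21) led the fibroblast markers, and Plvap (-2.21) and Egfl7 (-1.93) were the endothelial ones. The fibroblast list summed to 676 CPM in the KO library and 1386 CPM in the control, and the endothelial list to 84.2 and 178 CPM in the KO and control libraries. The part of these cells in the 3 ratios was not tested.

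Siglecg and Fcer2a are genes of B cells. Siglecg, an ITIM-bearing Siglec gene, had 114 reads in the KO library and 328 in the control (-1.11, -1.44 to -0.80; corrected -0.93). Fcer2a, the gene of the low-affinity IgE receptor CD23, had 123 reads in the KO library and 352 in the control (-1.10, -1.42 to -0.81; corrected -0.88). Of 5 B cell markers 4 were lower, with a summed level of 188 CPM in the KO library and 430 CPM in the control. The other marker, Cd22, lay above 0 and was not called (0.56, 0.44 to 0.69). It had 1046 reads in the KO library and 940 in the control. Ms4a1, the gene of CD20 left out by the rule, was not called, at 25.5 CPM in the KO library and 39.0 CPM in the control (-0.61, -0.80 to -0.42). The part of B cells in both ratios was not tested. Clec16a, a broadly expressed gene of autophagy with a lectin-like name, was at 0.66 (0.53 to 0.79).

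**Figure D3:**
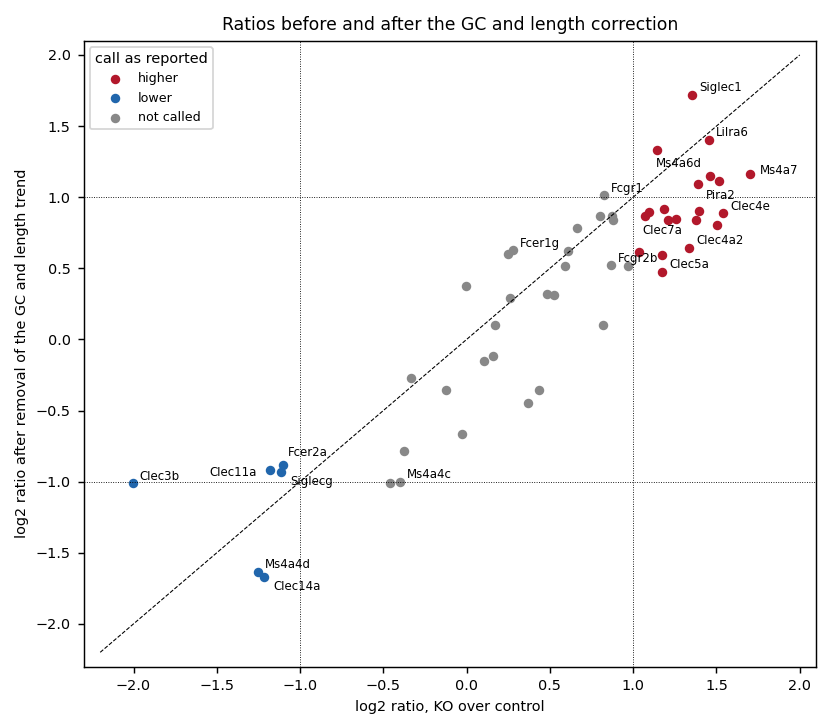
Log2 ratios of KO over control of the 53 measured members as reported (horizontal axis) and after removal of the trend on GC content and transcript length (vertical axis), with dotted lines at 2-fold and the dashed line where both are equal. Clec4e and Clec7a drop below the 2-fold line to 0.89 and 0.84, and Siglec1 moves up to 1.72.

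The higher lectins and Ig-like receptors moved alongside macrophage and neutrophil markers. Macrophage markers had a median of 0.99, with 6 of 13 higher and none lower, and summed to 37544 CPM in the KO library and 17902 CPM in the control. Itgam (1.51), Mrc1 (1.46) and Ctss (1.28) had the highest ratios among them. Neutrophil markers had a median of 1.02, with 4 of 8 higher, S100a8 (2.27), Ngp (2.08) and S100a9 (1.99) among them, and summed to 339 CPM in the KO library and 131 CPM in the control. No marker of either list was at 0 reads. Relative to the median of the macrophage markers no member was called higher, against 1.13% of all genes, and 12 were lower, or 22.6%, against 49.0% of all genes. Of the 53 members 20 lay above that median, and the median over them was -0.19. The part of macrophage number in the ratios was not tested.

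Other leukocyte lists went other ways. Dendritic cell markers had a median of -0.64, with H2-Ab1 (-1.31) and Cd209a (-1.14) lower among 8. Monocyte markers had a median of -0.15, with F13a1 higher (1.51) and Nr4a1 lower (-1.53) among 7. Plasmacytoid dendritic cell markers had a median of -0.01, with Spib (-1.96) and Ly6d (-1.82) lower among 6, and the single measured eosinophil marker, Ccr3, was at 0.26. The T and NK cell list had a median of 0.08, with Cd8a (2.18) and Klrb1c (1.09) higher and Nkg7 (-1.32) lower among 7. The B cell genes Cd79a (-2.10), Cd79b (-1.68) and Pax5 (-1.46) were lower. Epithelial markers had a median of -1.29 with Krt8 at -2.37, Scgb1a1 at -1.92 and Sftpc at -1.39, and mesothelial markers one of -1.70 with Upk3b at -2.65, Wt1 at -1.75 and Msln at -1.65.

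Receptors of the same kinds outside the symbol rule were mixed. The shares over all measured genes were 9.37% higher and 14.2% lower. Of 19 measured lectin receptors 7 were higher and 4 lower (median 0.31), with Cd209f (1.50), Ly75 (1.48) and Mrc1 (1.46) the highest of those called. Of 23 immunoglobulin-like receptors 6 were higher and 4 lower (median 0.53), and the largest changes were those of the B cell genes Fcrl5 (-2.06), Fcrla (-1.96) and Fcrl1 (-1.60). Among 18 transcription factors of the myeloid lineage 4 were higher and none lower (median 0.07), with Zeb2 (1.94), Bach1 (1.34) and Tfec (1.31) the highest. Spi1, which encodes PU.1, was not called, at 259 CPM in the KO library and 345 CPM in the control (-0.41, -0.47 to -0.35), and stood at 0.43 after the correction.

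**Figure D4:**
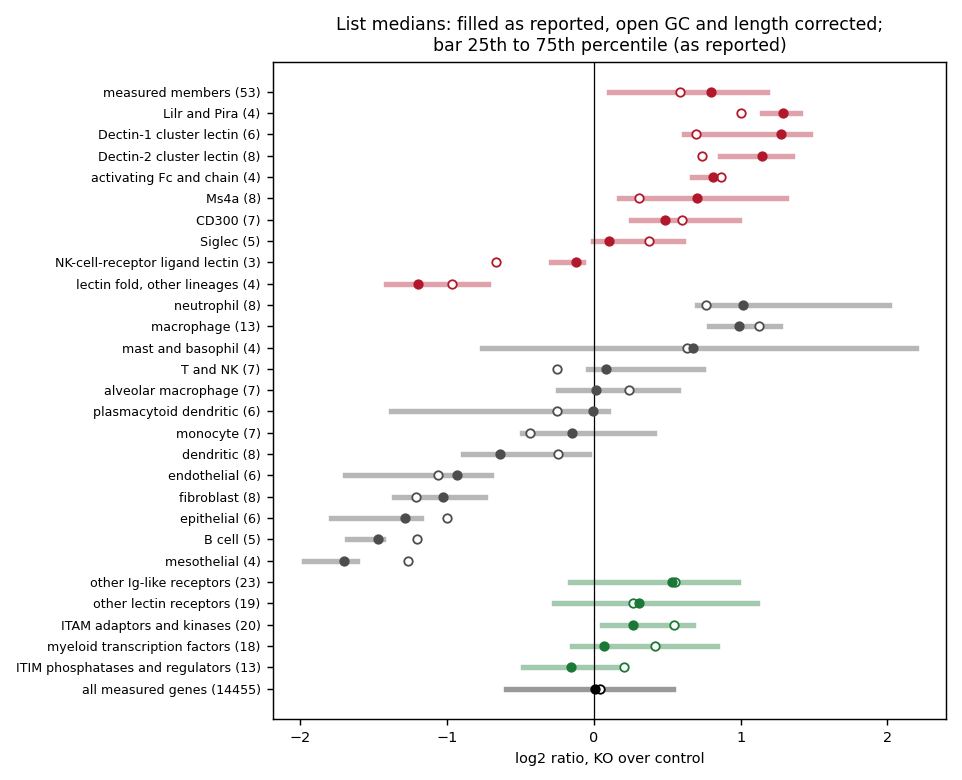
Median log2 ratio of KO over control in role groups of the members (red), cell type markers (grey) and other gene lists (green), with measured genes in brackets; filled points are as reported, open points after the GC and length correction, and bars span the 25th to 75th percentile of genes. The Lilr and Pira, Dectin-1 and Dectin-2 groups have medians from 1.14 to 1.29, beside 0.99 for macrophage and 1.02 for neutrophil markers; after the correction they have medians of 1.0, 0.70 and 0.74, beside 1.12 for macrophage and 0.77 for neutrophil markers.

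The 20 members that were not measured comprised 7 with no reads in either library after rounding, 11 with 1 to 19 reads in both together, and 2, Clec2l and Cd300c, with more. A count of 0 allows a level of up to 0.221 CPM in the KO library and 0.167 CPM in the control (3 reads). Clec4f, a lectin gene of liver macrophages, was among the low ones, with 2 reads in the KO library and 3 in the control. No measured member was carried past the filter by the KO library alone, and 1, Clec2g, by the control library alone (0.96 CPM in KO and 1.33 CPM in the control).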

How the data were processed

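RNA of 2 libraries, 1 per genotype, was analysed. Nextera XT libraries do not mark strand, per the labels' protocols. The authors deposited 1 table with estimated counts and FPKM per gene. TopHat, Cufflinks and the builds mm10 and GRCm38 come from the submitters' processing notes, which give no versions or roles here. Estimated counts were rounded. The deposited FPKM was used to compare genes and in alternatives. TMM factors were computed with edgeR 4.0.16 under R 4.3.3. The log2 ratio used a prior count of 0.5, and its Clopper-Pearson interval came from scipy 1.17.1. Measured genes had 20 reads in both libraries together and 1 CPM or more in at least 1 of them. The calculation was tested on simulated data. GC content and length were those of the longest GENCODE M21 transcript, and their trends were removed by lowess (span 0.3, statsmodels 0.14.6). Of the 73 member identifiers all were in GENCODE M21, 70 under the same symbol. The rows named Lilrb4, Cd300lh and Siglec5 had the symbols Gm49339, Cd300ld3 and Siglecf there. Median-of-ratios size factors came from DESeq2 1.42.0.

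Members, lists and role groups were chosen with earlier results of these data known. None of the gene pairs compared by read ratio was planned in advance. Members named were the 10 with the highest mean CPM, called ones of at least 10 CPM, the 6 largest called ones below that and 2 uncalled ones per family. Up to 3 called genes per list, or the 2 most expressed, were named, and other genes after their values were seen. Protein sequences were not used here.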

Additional observations from a re-analysis of the deposited data

How the results depend on the processing

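With 1 library per genotype, all intervals cover counting error alone and no library could be left out. No paired analysis was possible because each genotype had 1 library. The 20 higher calls (37.7% of members, against 9.37% of all genes) became 11 with total reads alone (20.4%, against 4.05%). They became 11 with log2 of FPKM plus 0.1 (21.2%, against 3.88%) and 7 with FPKM plus 1 (13.5%, against 2.42%). With the GC and length trend removed they became 8 (15.1%, against 5.36%). Relative to macrophage markers they became 0, against 1.13% of all genes. At a 4-fold threshold they also became 0, and 174 of the 14455 measured genes were higher there. The 6 lower calls became 3 at a mean of at least 10 CPM (8.11% of members, 7.51% of all genes). Relative to macrophage markers they became 12 (22.6%, against 49.0% of all genes). They became 1 at 4-fold (1.89%, against 2.75% of all genes) and 1 with an interval beyond 2-fold (1.89%, against 6.45%). The causes were not tested. The members' median of 0.80 became 0.41 with total reads alone and the filter applied anew, 0.44 and 0.49 with FPKM plus 1 and plus 0.1, 0.59 with the GC and length trend removed, and -0.19 relative to macrophage markers, where 20 of the 40 members above 0 turned, none of them called. The medians of CD300 (-0.51), Clec (-0.33), Fc receptor (-0.18), Ms4a (-0.29) and Siglec (-0.89) genes turned there too, and among named members Cd300a (-0.51), Cd300lb (-0.11), Clec16a (-0.33), Clec4a3 (-0.020), Fcer1g (-0.71), Fcgr3 (-0.19), Ms4a8a (-0.40) and Siglec5 (-0.38). The Siglec median was -0.21 with total reads alone. Fcer1g was at -0.040 with total reads alone and with either FPKM setting. Size factors of DESeq2, a prior count of 2 and a filter on the mean CPM of at least 1 left all 26 calls in place, and 1 read as the minimum added Fcer1a as higher.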
